A study of Mus musculus with 8 samples.

Results

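The genes described here are the nuclear-encoded subunits of the mitochondrial respiratory chain and of ATP synthase, with their named assembly factors, in co-cultures of mouse splenocytes and colon cancer cells. They were chosen by gene name: every gene whose symbol begins with Nduf, Uqcr, Sdha, Sdhb, Sdhc, Sdhd or Atp5, or with Cox followed by 4, 5, 6, 7 or 8, without the 7 names that end in -ps (pseudogenes). This gave 97 of the 52636 gene IDs in the files. Of these, 36 are subunits of complex I, 4 of complex II, 8 of complex III, 20 of complex IV and 15 of complex V, and 14 are assembly factors or relatives of subunits. Ndufa4 and its paralog Ndufa4l2 carry a complex I name and were counted with complex IV, where Ndufa4 is now placed. The name rule does not take Cyc1, the cytochrome c1 of complex III. The 13 protein genes of the mitochondrial genome (mt- genes) were read beside the nuclear genes.

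Polyadenylated RNA was sequenced from 8 co-cultures, each holding splenocytes of Actin-GFP reporter mice together with cancer cells of liver metastases, all of strain C57BL/6. The metastases had been seeded by injecting tdTomato-labelled colon cancer organoids into the spleen, and the cancer cells had been sorted by their tdTomato and CD4 protein, the latter a marker of helper T cells. In 4 co-cultures the sorted cells were trogocytic, meaning cancer cells that had taken up membrane protein of T cells, and in the other 4, the control group, they were non-trogocytic. Both groups were cultured for 5 days at 1 cancer cell to 50 splenocytes. The type of splenocytes, the reporters and the culture conditions were thus alike, and the sorted cancer cell was the labelled difference. Whether the groups shared splenocyte donors or were set up together is not given. The labels give 4 replicates per group (non-trogocytic 1 to 4 and trogocytic 1 to 4) and do not say whether these came from separate animals or organoid lines, so each p-value reflects the spread of these libraries alone, and that spread may be technical.

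The respiratory chain sits in the inner mitochondrial membrane. Complex I takes electrons from NADH and complex II takes them from succinate. Both pass them through ubiquinone to complex III, from there through cytochrome c to complex IV, and on to oxygen, while ATP synthase (complex V) uses the proton gradient that complexes I, III and IV build. Complexes I, III, IV and V join subunits of both genomes, whereas complex II is wholly nuclear-encoded. Most of these RNAs are made in nearly every nucleated cell, so in a mixed culture their level is a sum over splenocytes and cancer cells.

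Levels are given in TPM, a share of all transcripts which is scaled by transcript length and library size, so that levels of different genes can be set side by side. Paired levels are mean ± SD (n = 4 libraries each) with the non-trogocytic group first, and the error of a fold change is the SE of limma. By an estimate from the deposited coverage values, between 1.39 and 1.84 Gb of bases were aligned per library. On that estimate, 100 TPM of a transcript of 500 bases rested on 146 to 211 read pairs. Both cell sources were present in every library. The summed level of 15 colon epithelium genes was 3333 to 8464 TPM in non-trogocytic and 4948 to 6481 TPM in trogocytic libraries, with none of the 15 at 0 throughout. The summed level of 6 leukocyte genes was 510.1 to 3415 TPM and 859 to 2596 TPM, and that of 10 macrophage and monocyte genes was 3279 to 14393 TPM and 1632 to 5176 TPM. The 10 T cell genes summed to 313 to 1048 TPM and 584 to 1647 TPM. As the RNA is from whole cultures, fewer cells of a type and less RNA per cell cannot be told apart, and the part of these cell mixtures in the results below was not tested beyond the comparisons given.

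No respiratory chain gene passed the test between trogocytic and non-trogocytic co-cultures. Of the 97 genes, 91 had at least 1 TPM in at least 4 libraries and were tested. The other 6 are isoforms of complex IV described with that complex. At an adjusted p below 0.05 (limma, two-sided, Benjamini-Hochberg over all 11433 tested genes), 0 of the 91 were called, where 6 of all tested genes, or 0.0525%, were called. An unadjusted p below 0.05 was reached by 0 of the 91, against 4.59% of all tested genes, and in 0 of the 91 did the 4 libraries of one group lie wholly above or below those of the other, against 2.68% of all tested genes. The adjusted p was 0.99975 for each of the 91.

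The differences were also small. Every fold change sets trogocytic over non-trogocytic libraries as a difference of mean log2(TPM + 1), a scale that understates changes of low genes. Their median over the 91 genes was −0.07, with a median standard error of 0.18, where the median over all tested genes was 0.01. A log2 fold change beyond 0.5 in either direction was seen for 3 of the 91 (Cox6a2, Cox7a1 and Sdhc, all 3 with mean levels under 20 TPM), against 30.2% of all tested genes, most of which are far less abundant. The fold change was below 0 for 62 of the 91, or 68.1%, where 49.3% of all tested genes lay below 0 and 50.7% above. That share was 53.8% without non-trogocytic library 4, 54.9% without trogocytic library 1, 58.2% with Ptprc (the leukocyte antigen CD45) as a covariate and 78.0% on FPKM, so its size moved with the libraries and the unit used. At a mean of 100 TPM or more, the median coefficient of variation over the 8 libraries was 15.9% for 74 respiratory chain genes and 20.9% for 1567 other genes. Of these 74 genes, 73.0% had a fold change below 0, with a median of −0.07, against 38.7% of the 1567 others, with a median of 0.05. The 2 sets share this floor but were not matched in level. Their median levels were 524 TPM for the 74 and 231 TPM for the others.

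**Figure D1:**
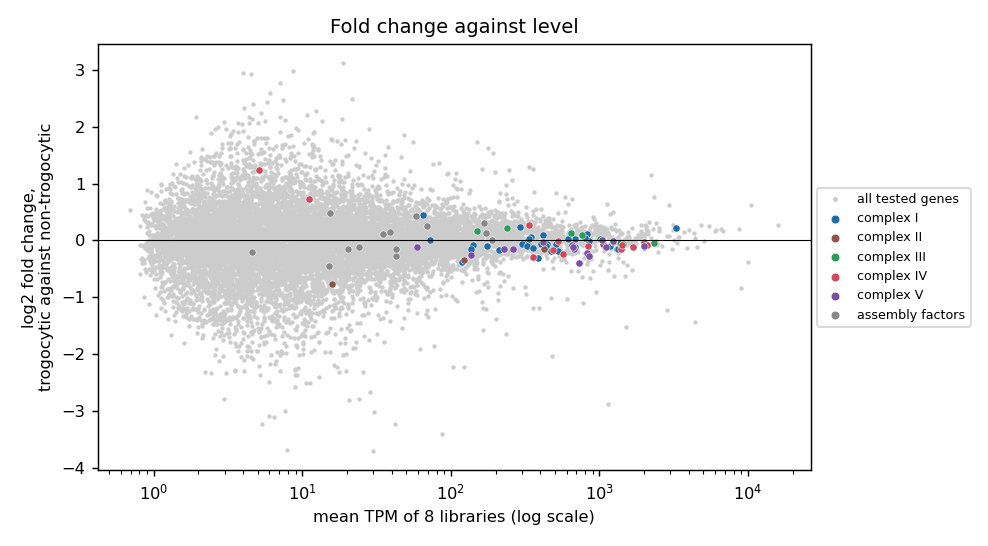
Log2 fold change (trogocytic against non-trogocytic, vertical) against the mean TPM of 8 libraries (horizontal, log scale) for all 11433 tested genes in grey and the 91 tested respiratory chain genes in colour by complex. Most coloured points lie at high levels close to 0, and the 3 beyond 0.5 in size all lie under 20 TPM.

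Some promoters of the group held short motifs known from genes of oxidative phosphorylation. RefSeq (GRCm38.p6) start sites matched 78 of the 97 genes by symbol, and the 300 bases from 250 before to 50 after each start were searched on both strands. The NRF1 core CGCATGCG, a palindrome, was found in 11 of the 78 (14.1%), in 4.63% of the other tested genes and in 2.07% of all 27025 genes of the promoter table. The YY1 motif AAGATGGCG was found in 8 (10.3%), against 3.81% of other tested genes and 1.64% of all. The ETS motif CCGGAAGT was found in 5 (6.41%), against 10.2% and 4.31%, and CCAAT in 34 (43.6%), against 43.2% and 41.1%. In 6 of the 8 YY1 matches the ATG inside the motif is the annotated start codon, so in these genes the motif spans the first codons. A match is a description of these letters and was not tied to any binding here.

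Windows of 30 bases are shown for 5 of the genes in which the YY1 match holds the start codon, since this placement sets them apart from an upstream site. They are read on the gene's strand, 5′ to 3′, with the motif in capitals.
Ndufa9: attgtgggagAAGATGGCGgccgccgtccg
Ndufc1: cctgcggaacAAGATGGCGccgtccgtagt
Ndufs4: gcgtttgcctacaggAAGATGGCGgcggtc
Ndufs7: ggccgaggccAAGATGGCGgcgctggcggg
Atp5j2: ccaggacttcAAGATGGCGtcactcggtga
Those 5 windows lie at chr6:126849096-126849125 on the minus strand, chr3:51408914-51408943 on the minus strand, chr13:114388045-114388074 on the minus strand, chr10:80249463-80249492 on the plus strand and chr5:145191499-145191528 on the minus strand, in that order. For NRF1, windows are shown for 4 genes of complexes III, IV and V, with the core in capitals; Uqcrc1 and Cox6a1 are among the subunits whose levels varied most between libraries.
Uqcrc1: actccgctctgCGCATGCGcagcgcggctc
Cox6a1: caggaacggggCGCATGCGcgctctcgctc
Atp5g2: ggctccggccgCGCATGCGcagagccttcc
Uqcr11: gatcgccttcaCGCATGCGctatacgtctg
These lie at chr9:108936668-108936697 on the plus strand, chr5:115349101-115349130 on the minus strand, chr15:102671070-102671099 on the minus strand and chr10:80406808-80406837 on the minus strand. The median level was 648 TPM for the 11 tested genes with an NRF1 match and 432 TPM for the 64 without, while the median log2 fold change was −0.05 and −0.08. For YY1 the medians were 422 TPM with a match (8 genes) and 443 TPM without (67 genes), with both median fold changes at −0.08.

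Complex I, the largest of the chain, had all 36 subunit genes above the filter, and together they summed to 20847 ± 2365 TPM without and 20510 ± 1505 TPM with trogocytic cells (SD, n = 4 each). The log2 ratio of these means was −0.02. Of the 36 fold changes, 12 lay above 0 and 24 below, with a median of −0.06. The most abundant respiratory chain RNA of all was Ndufa12, an accessory subunit. It stood at 2693, 2305, 3548 and 3644 TPM in the non-trogocytic libraries and 3156, 3576, 4393 and 3020 TPM in the trogocytic ones, so the groups overlapped, with a log2 fold change of 0.22 ± 0.18 (SE). Of the Ndufa12 transcript, 36.2% is shared with a near-identical copy elsewhere in the genome that was listed at a mean of 16 TPM. Ndufb8, an accessory subunit of the membrane arm, came next within complex I at 1402 ± 104 and 1281 ± 245 TPM.

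The 7 core subunits that carry electrons or line their path were less abundant than the accessory ones, with a median of 211 TPM against 471 TPM for the 29 accessory subunits. The core transcripts, taking the longest annotated one of each gene, were also longer (median 1623 against 875 bases). Level fell with this length over the 77 tested subunits of all complexes (Spearman correlation −0.47). The part of length was not tested. In complex IV, Cox4i1, Cox5a and Cox5b had a median of 1394 TPM against 566 TPM for the other tested subunits. That split is not one of core against accessory subunits, since mt-Co1, mt-Co2 and mt-Co3 form the core of complex IV. Ndufv2 (373 ± 32.6 and 342 ± 47.6 TPM), Ndufs3 (334 ± 37.3 and 339 ± 30.4 TPM) and Ndufs8 (338 ± 44.7 and 315 ± 17.6 TPM) were the highest of the 7 core subunits of complex I. Ndufs7, which lies beside the ubiquinone site, stood at 224 ± 47.1 and 198 ± 29.4 TPM. Ndufs1, which holds iron-sulfur clusters, stood at 70.4 ± 17 and 73.2 ± 25.3 TPM, and its span overlaps the antisense gene Eef1b2, listed at a mean of 282 TPM. Ndufv1, which binds NADH and the flavin, was the lowest of complex I and the most uneven subunit of at least 50 TPM. Its level was 21.2, 147, 20.5 and 69.8 TPM in the non-trogocytic libraries, a 7.17-fold range, and 66.1, 55.6, 52 and 85.6 TPM in the trogocytic ones. The trogocytic values all fell inside the range of the non-trogocytic values, and the log2 fold change was 0.45 ± 0.56.

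The complex I genes with the smallest p were Ndufc2 and Ndufb3, both accessory subunits of the membrane arm. Ndufc2 stood at 363, 402, 442 and 494 TPM in the non-trogocytic libraries and at 306, 402, 321 and 347 TPM in the trogocytic libraries. Its log2 fold change was −0.30 ± 0.16, and non-trogocytic library 1 and trogocytic library 2 made the groups overlap. Ndufb3 differed in the other direction, with means of 270.5 ± 50.4 and 317 ± 36.8 TPM and a log2 fold change of 0.24 ± 0.18. Neither passed the test (limma adjusted p = 0.99975 for both). The remaining accessory subunits of complex I lay between 137 and 1319 TPM on average over the 8 libraries, with log2 fold changes of −0.18 to 0.11.

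Complex II, succinate dehydrogenase, also serves the citric acid cycle, and its 4 genes spanned a wide range of levels. Sdhb, the iron-sulfur subunit, was among the steadier genes of the chain, at 1050.4, 888, 1225 and 1139 TPM in the non-trogocytic libraries and 956, 1066, 1105 and 993 TPM in the trogocytic libraries. Sdhd, a membrane anchor, stood at 453 ± 129 and 399 ± 47.7 TPM. The flavoprotein Sdha, the catalytic subunit, was far lower, at 105, 246, 90.6 and 109 TPM in the non-trogocytic libraries and 124, 113, 46.8 and 147 TPM in the trogocytic ones. Non-trogocytic library 2 stood above every other library and trogocytic library 3 below. Sdhc, the other membrane anchor, was listed at 14.6, 19.2, 19 and 25.7 TPM in the non-trogocytic libraries and at 13.9, 18.9, 8.66 and 6.06 TPM in the trogocytic ones. Its log2 fold change of −0.77 ± 0.41 was the lowest of the 91 genes and did not pass the test. All 4 fold changes lay below 0, yet the sum of the 4 genes, which Sdhb dominates, stood at 1686 ± 167 and 1549 ± 51.7 TPM (SD, n = 4 each) with overlapping groups.

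Complex III passes electrons from ubiquinol to cytochrome c, and its 8 genes split into small abundant subunits and larger core proteins of lower level. The small subunit Uqcr10 stood at 1896, 1974, 2652 and 3038 TPM in the non-trogocytic libraries and 2026, 2199, 2801 and 2135 TPM in the trogocytic libraries. Uqcrb, at the ubiquinone site, stood at 1462 ± 223 and 1416 ± 283 TPM, and Uqcrh, the hinge protein next to cytochrome c1, at 744 ± 164 and 783 ± 80.3 TPM. The 2 core proteins behaved unlike each other between libraries. Uqcrc2 held at 187, 254, 206 and 237 TPM in the non-trogocytic libraries and 219.7, 294, 278 and 235 TPM in the trogocytic libraries, with a log2 fold change of 0.21 ± 0.18. Uqcrc1 was 301, 1355, 328 and 716 TPM in the non-trogocytic libraries and was 543, 547, 532 and 863 TPM in the trogocytic ones. The range of Uqcrc1 was thus 4.51-fold over the 8 libraries, with its extremes in control libraries 1 and 2. The Rieske iron-sulfur protein Uqcrfs1 peaked in the same control library, at 85.4, 268, 78.9 and 170.3 TPM against 128, 138, 165 and 171 TPM in the trogocytic libraries. Of the 8 fold changes, 5 lay above 0 and 3 below, and the summed level was 8048 ± 1265 and 7878 ± 791 TPM (SD, n = 4 each).

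Complex IV, cytochrome c oxidase, is where isoform genes mark tissues, and the co-cultures held almost only the widely expressed forms. Cox4i1, the largest nuclear subunit, stood at 1922, 1580.5, 1670.4 and 1855 TPM in the non-trogocytic libraries and 1486, 1466, 1653 and 1862 TPM in the trogocytic ones, while its hypoxia-related and lung-enriched paralog Cox4i2 was listed at 0 in 6 libraries and at 0.51 and 1.36 TPM in trogocytic libraries 2 and 3. Cox6b2 (testis), Cox7b2, Cox8b (heart and skeletal muscle), Cox8c and Ndufa4l2 were listed at 0 in all 8 libraries. Their partners were abundant in both groups. Cox6b1 stood at 1464 ± 193 and 1381 ± 157 TPM, Cox7b at 518 ± 111 and 454 ± 36.8 TPM, Cox8a at 615 ± 109 and 518 ± 79.3 TPM, and Ndufa4 at 2145 ± 413 and 2036 ± 433 TPM.

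The muscle forms of 2 subunits were present at low levels. Cox6a2 was listed at 4.4, 3.69, 3.63 and 0 TPM in the non-trogocytic libraries and 4.03, 5.43, 7.71 and 11.9 TPM in the trogocytic libraries, and Cox6a1, the form of most other tissues, at 217, 622, 322 and 453 TPM and 269, 308, 272 and 389.7 TPM. The share of Cox6a2 in the pair was 0% to 1.99% in non-trogocytic and 1.48% to 2.96% in trogocytic libraries. The log2 fold change of Cox6a2, 1.24 ± 0.62, was the highest of the 91 genes and did not pass the test. Trogocytic library 1 lay below the highest control. Cox7a1 was listed at 17.4, 3.33, 8.13 and 5.64 TPM in the non-trogocytic libraries and 15, 18.2, 14.6 and 6.51 TPM in the trogocytic ones, or 0.52% to 2.30% of the Cox7a1 and Cox7a2 pair, with a log2 fold change of 0.72 ± 0.53. Of 6 heart and skeletal muscle genes read beside these, Ckm, Myh6 and Myl2 were at 0 in all 8 libraries, Myh7 in 7 of 8, Acta1 reached 6.56 TPM, and Tnnt2 was listed at 28.1 ± 8.01 and 53.2 ± 19.8 TPM, so the summed level was 21.1 to 34.4 and 33.1 to 79.2 TPM. The related gene Cox7a2l stood at 275, 353, 245 and 343 TPM in the non-trogocytic libraries and 361, 347, 327 and 428 TPM in the trogocytic ones. Its log2 fold change of 0.28 ± 0.18 did not pass either, and non-trogocytic libraries 2 and 4 lay within the range of the trogocytic values.

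**Figure D2:**
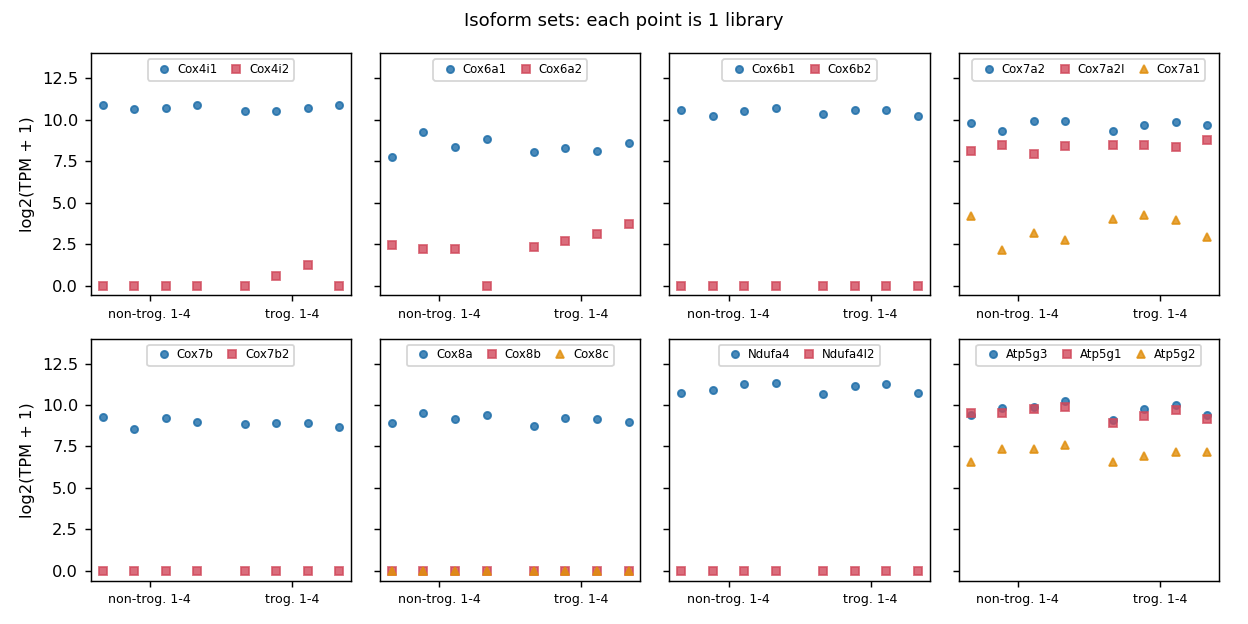
Levels as log2(TPM + 1) (vertical) of 8 isoform sets, each point 1 library, with the 4 non-trogocytic libraries to the left and the 4 trogocytic libraries to the right in each panel. Cox6b2, Cox7b2, Cox8b, Cox8c and Ndufa4l2 lie at 0 in every library, Cox6a2 and Cox7a1 lie far below their partners, and Atp5g1 and Atp5g3 run side by side.

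The rest of complex IV was even. Cox7c stood at 2019 ± 386 and 1957 ± 222 TPM, Cox5a at 1463 ± 199.9 and 1324 ± 211 TPM and Cox5b at 530.2 ± 104 and 518 ± 48.7 TPM. Of 14 tested subunits, 3 had a fold change above 0 and 11 below, with a median of −0.08, and the 3 above 0 were Cox6a2, Cox7a1 and Cox7a2l. The summed level was 13339 ± 1355 TPM in non-trogocytic and 12526 ± 1317 TPM in trogocytic libraries (SD, n = 4 each), a log2 ratio of −0.09. The mean of log2 levels, which counts each gene alike, gave 0.07 instead, since the low isoforms Cox6a2 and Cox7a1 then weigh as much as Cox4i1.

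Complex V, ATP synthase, showed small differences. The fold change lay below 0 for 14 of its 15 genes, with Atp5j as the exception at 0.02 ± 0.14, but 0 of 15 passed the test and the median was −0.11. Over the 18 alternative settings the number below 0 ranged from 11 to 15, with 11 when Ptprc was a covariate or non-trogocytic library 2 was left out. Genes of 1 library share its depth and cell mixture, so these signs are not independent of each other. The summed level was 11379 ± 1348 and 10317 ± 1060 TPM (SD, n = 4 each), a log2 ratio of −0.14 with overlapping groups. The gene with the smallest p of all 91 was Atp5g1, 1 of 3 genes for the same mature c subunit of the membrane ring. It stood at 722, 742, 877 and 948 TPM in the non-trogocytic libraries and at 489, 658, 819.5 and 565 TPM in the trogocytic libraries, a log2 fold change of −0.39 ± 0.18, which did not pass the test. Trogocytic library 3 reached into the control range and the other 3 trogocytic libraries lay below it. Its partner Atp5g3 stood at 931 ± 231 and 771 ± 202 TPM and the less abundant Atp5g2 at 151 ± 41.6 and 124 ± 22.4 TPM. The shares of the 3 genes lay close together in the groups. Atp5g1 made up 43.6% ± 3.94 and 41.5% ± 1.10 (SD, n = 4 each) of the c subunit RNA, Atp5g3 48.5% and 50.2%, and Atp5g2 7.83% and 8.27%.

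The other ATP synthase genes are given by their place in the enzyme. Of the catalytic head, the gamma subunit Atp5c1 stood at 705 ± 105 and 635 ± 93.1 TPM, the beta subunit Atp5b at 279.7 ± 103 and 241 ± 29.6 TPM, and the alpha subunit Atp5a1 at 251 ± 129 and 207 ± 24.6 TPM. The epsilon subunit Atp5e stood at 885 ± 116 and 762 ± 104 TPM with a log2 fold change of −0.22 ± 0.16. The delta subunit Atp5d was much lower and uneven, at 21.6, 137, 48 and 56.6 TPM in the non-trogocytic libraries and 65.5, 45.3, 30.2 and 67.1 TPM in the trogocytic ones. Atp5o, the oligomycin sensitivity-conferring protein that links the peripheral stalk to the head, was the highest at 1673, 1762, 2378 and 2413 TPM in the non-trogocytic libraries and 1589, 2058, 2279 and 1694 TPM in the trogocytic libraries. The membrane subunit g, Atp5l, stood at 1249 ± 261 and 1217 ± 93.5 TPM. Parts of the Atp5o (76.7%), Atp5h (71.1%) and Atp5l (57.4%) transcripts have near-identical copies elsewhere, whose listed levels together were at most 1.93% of the gene's own for the 13 respiratory chain genes with copies over at least 20% of the transcript.

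The assembly factors, which build complexes and are not part of them, were expressed at lower levels, with a median of 41.0 TPM against 513 TPM for the 77 tested subunits. The 14 genes summed to 858 ± 96.0 TPM in non-trogocytic and 935 ± 131 TPM in trogocytic libraries (SD, n = 4 each), a log2 ratio of 0.12, with 8 fold changes above 0 and 6 below. Ndufaf8, a complex I factor, was the highest and steadiest of them at 190.0 ± 24.2 and 190.4 ± 19 TPM, and Sdhaf4, a complex II factor, stood at 166 ± 44.7 and 181 ± 42.2 TPM. The smallest p values belonged to the complex I factor Ndufaf2 (50.6 ± 19.97 and 66.1 ± 17.1 TPM, log2 fold change 0.43 ± 0.33) and the complex II factor Sdhaf3 (12.9 ± 6.73 and 17.6 ± 5.35 TPM, log2 fold change 0.48 ± 0.43). The span of Ndufaf2, introns included, overlaps the antisense gene Smim15, listed at a mean of 225 TPM. Since the strand setting of the counting is not given, reads in any shared exon cannot be told apart, and overlap of exons was not measured. In all, the spans of 15 of the 97 genes overlap an antisense gene of at least 10 TPM.

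**Figure D3:**
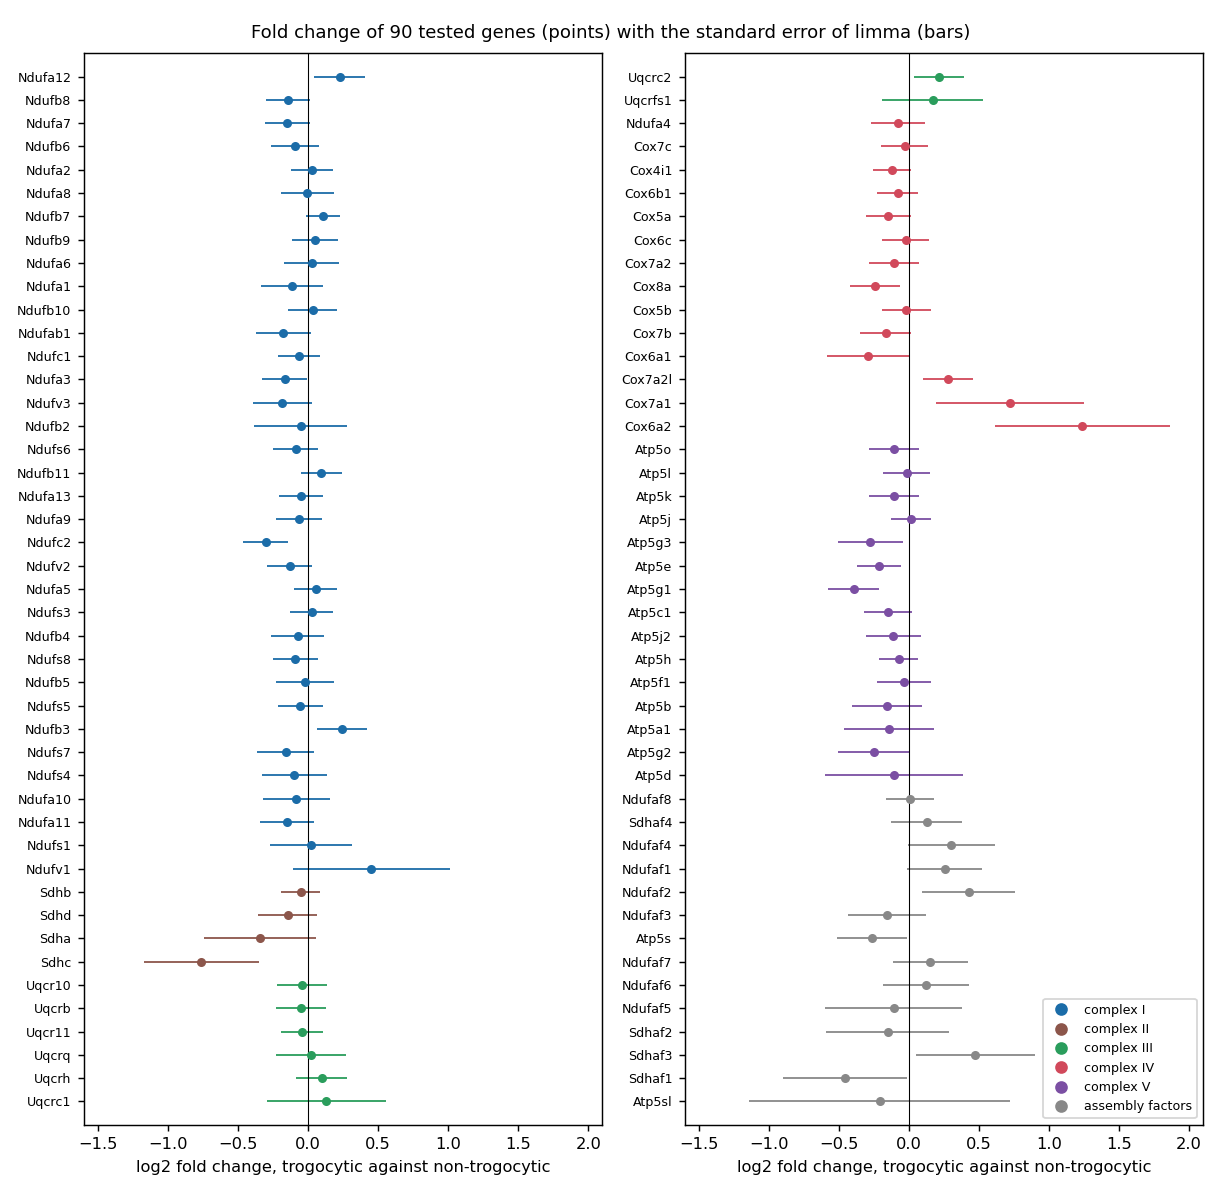
Log2 fold change (trogocytic against non-trogocytic, horizontal) of 90 tested genes, ordered within each complex by mean level, with bars for the standard error of limma. Most bars span or nearly reach 0, the widest belong to low genes such as Atp5sl and Cox6a2, and 14 of the 15 complex V points lie left of 0.

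The mitochondrially encoded genes varied far more between libraries than the nuclear ones, and more between libraries than between groups. Summed over the 5 complexes, nuclear subunits made up 50775, 49534, 59828 and 61065 TPM in the non-trogocytic libraries and 47499, 54737, 57654 and 51230 TPM in the trogocytic ones. That is 4.75% to 6.11% of all TPM, with a coefficient of variation of 9.33%. The 13 mt- genes summed to 10811, 3925, 6140.1 and 3168 TPM in the non-trogocytic libraries and 11438, 7014, 5604 and 8642 TPM in the trogocytic ones, a coefficient of variation of 42.5% and a 3.61-fold range. Non-trogocytic library 4 had the highest nuclear sum and the lowest mt- sum, and trogocytic library 1 the reverse. The means of the mt- sums were 6011 ± 3439 and 8174 ± 2505 TPM (SD, n = 4 each), a log2 ratio of 0.44 that is smaller than the spread within groups (SD 0.63 on the log2 scale). It was 0.89 without non-trogocytic library 1, 0.23 without non-trogocytic library 4 and 0.24 without trogocytic library 1. Of the 13 mt- genes, 12 were tested and 0 were called, and 10 fold changes lay above 0, with a median of 0.44.

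The ratio of nuclear to mt- RNA over complexes I, III, IV and V was 4.56, 12.2, 9.46 and 18.7 in the non-trogocytic libraries and 4.02, 7.57, 10.02 and 5.75 in the trogocytic libraries. The groups overlapped, and the log2 ratio of their means was −0.71 against a within-group SD of 0.72. Without non-trogocytic library 4, which had the highest ratio, it was −0.35. By complex, the ratio was 10.8 ± 5.32 and 6.94 ± 2.53 for complex I, 4.05 ± 2.16 and 2.41 ± 0.81 for complex III, 20.8 ± 13.3 and 11.4 ± 5.26 for complex IV, and 68.5 ± 40.3 and 73.8 ± 48.3 for complex V (SD, n = 4 each). The 3 libraries with the highest mt- sums, non-trogocytic 1 and trogocytic 1 and 4, were also the 3 with the highest summed level of the 6 leukocyte genes (3415, 2596 and 2118 TPM), and non-trogocytic library 4, lowest in mt- RNA, was lowest in those too (510.1 TPM). The 10 T cell genes were also highest in those 3 libraries (1048, 1647 and 1197 TPM) and lowest in non-trogocytic library 4. The macrophage and monocyte sum did not follow this order. It was 6019 TPM in non-trogocytic library 2, where mt- RNA was low, and 4029 TPM in trogocytic library 4. Among the 6 leukocyte genes, Laptm5 and Rac2 also departed from the order. The part of cell mixture in the mt- levels was not tested.

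**Figure D4:**
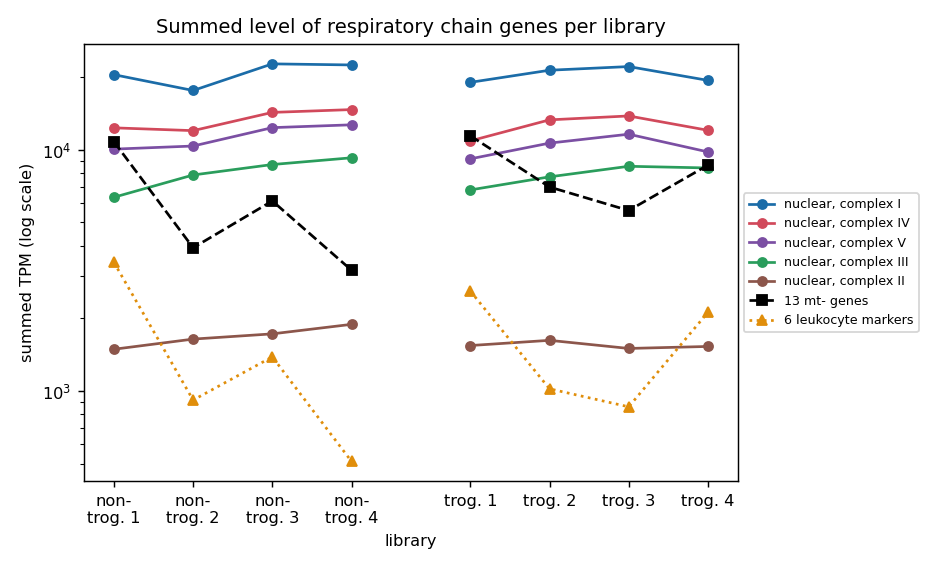
Summed TPM (vertical, log scale) of the nuclear subunits of each complex, of the 13 mt- genes and of 6 leukocyte markers in each of the 8 libraries; lines only join values of 1 sum within a group. The nuclear sums run nearly flat, and the mt- sum moves from 3168 to 11438 TPM with peaks where the sum of these 6 leukocyte markers peaks.

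The mt- levels carry a limit of their own. The highest were mt-Cytb at 2403 ± 1115 and 3515 ± 1006 TPM, mt-Co1 at 955 ± 769 and 1277 ± 581 TPM, and mt-Nd1 at 983 ± 429 and 1118 ± 298 TPM (SD, n = 4 each). In contrast, mt-Co2, mt-Co3, mt-Nd3 and mt-Nd4l were listed at means under 10 TPM over the 8 libraries. These 4 genes are, like mt-Co1 and mt-Atp6, matched over at least 98% of their length by near-identical nuclear copies, so their levels are uncertain. The sources used here do not say how reads with several matches were counted. The mt- sum of complex IV holds only mt-Co1, mt-Co2 and mt-Co3, and that of complex V holds mt-Atp6. The nuclear to mt- ratios of complexes IV and V therefore carry this limit. That of complex I carries it in part, since its mt- sum holds mt-Nd3, mt-Nd4l and mt-Nd4. Of mt-Nd4, listed at a mean of 258 TPM, 63.6% of the length is matched by a near-identical copy. The copy of mt-Atp6 was listed at a mean of 155 TPM, against 91.5 TPM for mt-Atp6 itself. Restricted to the 6 mt- genes with no such copy among annotated transcripts, the nuclear to mt- ratio had a log2 ratio between groups of −0.70, and the mt- sum varied by 39.8%. The genes mt-Nd5 and mt-Nd6 overlap on opposite strands and cannot be told apart there.

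A minority of nuclear subunits varied far more between libraries than the rest, and most of them peaked in the same control library. Among the 77 tested subunits, 30 had a coefficient of variation under 15% and 55 under 20%. At the other end, 11 had a highest library at least 2.5 times the lowest, a limit chosen after the values were seen, among them Ndufv1, Atp5d, Cox7a1, Sdha, Uqcrc1, Sdhc, Uqcrfs1, Ndufb2, Atp5a1 and Cox6a1. Cox6a2, listed at 0 in 1 library, has no such ratio. Inside the limit lay Cox6a1 (2.87-fold), and just outside it Atp5b (2.25-fold) and Atp5g3 (2.22-fold). Non-trogocytic library 2 was the highest for 8 of the 11, while over all 77 subunits it was the highest for 11 and the lowest for 24. Without that library, 6 of the 11 still had a 2.5-fold range and no other tested subunit did. Ndufb2 ran opposite, at 655, 234, 709 and 302 TPM in the non-trogocytic libraries.

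The 8 genes that peaked in that library include catalytic or core subunits of complexes I, II, III and V. The median GC content of the 11 transcripts was 54.5% and their median length 1653 bases, against 50.4% and 823.5 bases for the other subunits. Over all 11424 tested genes with a transcript in the annotation, the log2 ratio of non-trogocytic library 2 to the mean of the libraries had a Pearson correlation with GC content of 0.31, and over the 77 subunits of 0.23. The correlation with log2 transcript length was 0.07 over all tested genes and 0.41 over the subunits. In size, the correlation with GC content over the subunits was no larger here than in non-trogocytic library 3 or trogocytic library 2, where it was −0.27 in each. Over all tested genes, however, it was −0.13 to 0.08 in the other libraries, so 0.31 was the largest in size. The correlation with length over the subunits was also larger in size here than in any other library. All are across genes of 1 library, which are not independent replicates, and are given as a description. The summed colon epithelium genes also peaked in this library (8464 TPM) and were lowest in non-trogocytic library 1 (3333 TPM), the library in which 4 of the 11 were lowest. Krt18, a keratin of simple epithelia, was listed at 1711, 4617, 2573 and 3451 TPM in the non-trogocytic libraries and so made up much of that sum. Krt8 (1731 TPM) and Krt19 (769 TPM) also peaked in non-trogocytic library 2, but not all genes of the sum did. Epcam was highest in non-trogocytic library 4 (496 TPM), and Ly6d was lowest in non-trogocytic library 2 (132 TPM). The parts of GC content, length and cell mixture in these levels were not tested.

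**Figure D5:**
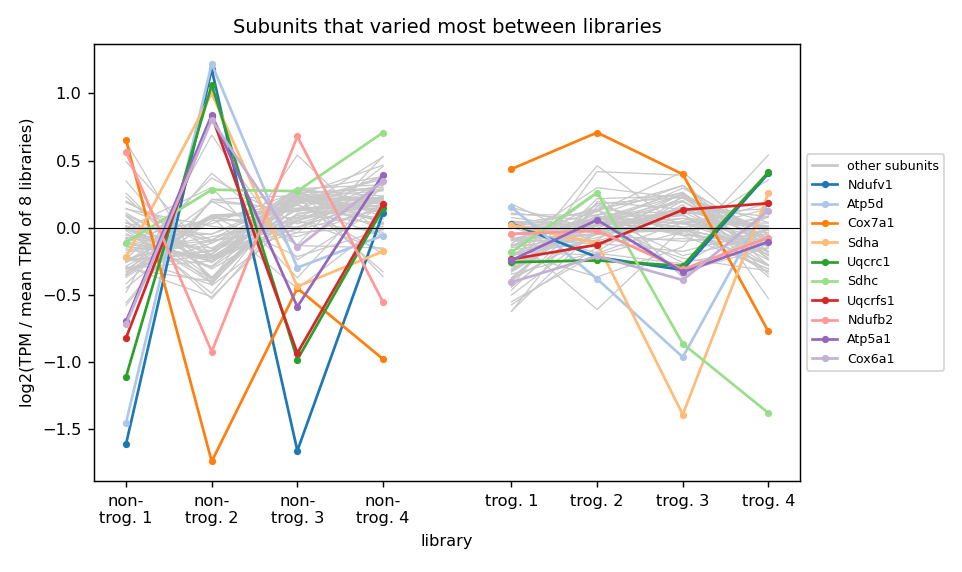
Log2 of each subunit's TPM over its own mean of 8 libraries (vertical), by library, with 10 of the most variable subunits in colour and others in grey; lines only join values of 1 gene within a group. 7 of the coloured lines peak in non-trogocytic library 2, where most grey lines lie near or below 0.

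Genes around the chain were likewise without calls. Of 40 assembly factors outside the name rule, 39 were tested, 18 with a fold change above 0 and 21 below, and 0 were called. The smallest p in that list was that of Cox15, needed to make heme A for complex IV, at 4.98, 15, 5.94 and 6.37 TPM in the non-trogocytic libraries and 1.64, 1.8, 3.49 and 1.03 TPM in the trogocytic libraries. These groups do not overlap, but the log2 fold change of −1.55 ± 0.49 did not pass (limma adjusted p = 0.94), and the level rests on few reads. Atpif1, the inhibitor of ATP synthase, was the most abundant at 2024 ± 382 and 1887 ± 126 TPM. Among 16 tested electron carriers and other ubiquinone reducers, 7 lay above 0 and 9 below, with Etfa, a flavoprotein of fatty acid oxidation, at 882 ± 123 and 1055 ± 143 TPM, and cytochrome c, Cycs, at 400.5 ± 72.6 and 414 ± 69.8 TPM.

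Among regulators of mitochondrial gene expression 0 were called (16 tested, 10 above 0 and 6 below). Polg2, a subunit of the mitochondrial DNA polymerase, stood at 11.4 ± 4.39 and 18.8 ± 4.8 TPM, and Slirp, which binds mitochondrial mRNA, at 429 ± 147 and 551 ± 195 TPM. Of the factors whose motifs were searched above, Nrf1 stood at 21.7 ± 13.2 and 18.5 ± 5.68 TPM and Yy1 stood at 31.1 ± 7.59 and 30.9 ± 9.37 TPM. Of 13 citric acid cycle genes, 5 lay above 0 and 8 below. Mdh2, malate dehydrogenase, had the highest level and, like Uqcrc1, peaked in non-trogocytic library 2, at 459, 1447, 613 and 990.2 TPM in the non-trogocytic libraries, and Sucla2, of succinyl-CoA ligase, had the smallest p (426 ± 42.7 and 518 ± 90.3 TPM). Of 17 membrane carriers, 9 lay above 0 and 8 below. The adenine nucleotide carrier Slc25a5 was the highest (3249.9 ± 496 and 2927 ± 367 TPM), and Ucp2, an uncoupling protein family member, had the smallest p, at 15.1, 26.2, 14.4 and 16.4 TPM in the non-trogocytic libraries and 6.36, 7.71, 6.84 and 9.32 TPM in the trogocytic libraries. The Ucp2 groups do not overlap, yet its log2 fold change of −1.13 ± 0.37 did not pass (limma adjusted p = 0.94).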

How the data were processed

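Polyadenylated RNA of 8 co-cultures (4 trogocytic, 4 non-trogocytic) was sequenced as paired-end reads of 100 bp, per the labels' protocols. HISAT2, StringTie 1.3.3, DESeq version 2 and the builds GRCm38 and mm10 are named in the submitters' processing notes. Not given in the sources used here are the annotation release, the strand setting and the treatment of reads with several matches. Per the file headers, each deposited table holds a coverage (signal), an FPKM and a TPM per gene, and the total TPM is the same in all libraries. The aligned bases of a library were estimated as the most common ratio of coverage to FPKM among its more abundant genes. That ratio was shared by 17.7% to 19.4% of those genes.

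TPM was summed per gene ID. The test took genes at 1 TPM or more in at least 4 libraries and was run with limma 3.58.1 (R 4.3.3, mean-variance trend) on log2(TPM + 1), a pseudocount of 1, with a threshold of 0.05 on the Benjamini-Hochberg adjusted p. The respiratory chain genes, the gene lists, the motifs and the tests were chosen with earlier results of these data known. Named genes are, per complex, those with the 2 smallest p and with the 2 highest levels. Added to these are the catalytic and core subunits, Cox4i1, Cox5a and Cox5b, the isoform sets and those listed at 0, 53 in all. In each list of related genes, the one with the smallest p and the one with the highest level are named. Others named in the text were chosen after their values were seen. The result of 1 named gene is not reported here. Transcript length and GC content came from GENCODE M21 (GRCm38), in which 79 of the 97 genes have the same versioned ID and span. They are those of the longest transcript of each gene, protein-coding where there is one, which need not be the one expressed. The share of a transcript with near-identical copies was taken over the same transcript. Overlaps were taken between the deposited gene spans, introns included. Near-identical copies were stretches of at least 100 bases at 97% identity or more in annotated transcripts of other genes (blastn 2.17.0). Copies outside annotated transcripts were not searched for. No count model was used, since the files hold no counts of reads.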

Additional observations from a re-analysis of the deposited data

Results flagged for a closer look

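Among 144 sets of 4 libraries (each named gene or ratio in each group), 4 had a highest or lowest library far from the other 3 relative to the range of the group (Dixon's criterion, 0.829 for 4 libraries). Chance alone gives about 1 in 20 such sets, so 4 of 144 is not more than chance would give. Cox5a was lowest in non-trogocytic library 1 at 1165 TPM, where the other 3 libraries of that group stood at 1594, 1532 and 1560.3 TPM. Sdha was highest in non-trogocytic library 2 at 246 TPM, against 105, 90.6 and 109 TPM in the others. Uqcrc1 was highest among the trogocytic libraries in library 4 at 863 TPM, against 543, 547 and 532 TPM. The nuclear to mt- ratio of complex V was highest in trogocytic library 3 at 145 (50.0, 57.9 and 41.6 in the others), the library with the lowest summed mt-Atp6 and mt-Atp8 level. The level of mt-Atp6 is uncertain because of its near-identical nuclear copy.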

How the results depend on the processing

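The count of called respiratory chain genes was 0 in all 18 alternatives: FPKM, a pseudocount of 0.1, no filter, a filter of 5 TPM, median-of-ratios scaling, no mean-variance trend, Ptprc as a covariate, the replicate number as a block with and without scaling, both first replicates left out, and each library left out. Their median log2 fold change stayed between −0.12 and −0.02. The 6 calls over all tested genes depended on the setting: 1 with no filter, 1 with no trend, 0 without the first replicates of both groups and 0 to 3 with 1 library left out. With a replicate block 0 genes were called, with or without scaling. The labels do not say whether replicate numbers pair the samples, and no pairing was assumed: deviations of same-numbered libraries correlated at 0.24, 0.01, 0.06 and −0.09. The log2 ratio of complex II was −0.33 as a mean of log2 levels, and that of complex IV was 0.0695 by the same mean. The nuclear to mt- ratio stayed between −0.98 and −0.35. Counting Ndufa4 with complex I and using only mt- genes without annotated copies were chosen after seeing the data and moved no value beyond the spread. Precision is limited by 4 libraries a group and, for genes of a few TPM, by few reads.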

Other observations

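Other genes and cell types differed between single libraries or, at low levels, between the groups. The hepatocyte genes Alb and Apoa1 were listed at 36.5 and 56 TPM in non-trogocytic library 3 and at 0 in the other 7 libraries, and the 6 hepatocyte genes summed to 148 TPM there. The 6 fibroblast genes summed to 0.56 to 35.5 TPM in the non-trogocytic libraries and to at most 0.19 TPM in the trogocytic ones. Ppargc1a, a coactivator of mitochondrial genes, was under the filter and listed at 0.45, 0.57, 1.56 and 5.37 TPM in the non-trogocytic and 0, 0.14, 0.24 and 0.26 TPM in the trogocytic libraries. The Ppargc1a groups do not overlap, and neither do those of Ppargc1b, also under the filter, at 0.59 to 3.63 TPM and 0 to 0.20 TPM. Levels this low rest on few reads.

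The 9 tested macrophage and monocyte genes all had fold changes below 0, with 0 called, and the 10 T cell genes all had fold changes above 0, with 0 called. The mitochondrial pyruvate carrier gene Mpc1 was listed at 886, 556, 579 and 568 TPM in the non-trogocytic libraries and 521, 495, 507 and 496 TPM in the trogocytic libraries; the groups do not overlap, and the difference did not pass the test (limma adjusted p = 0.99975). The 7 pseudogene names that the rule leaves out reached at most 15.5 TPM in any library.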
